A study of Mus musculus with 33 samples.

Results

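The genes described here are the 5 collapsin response mediator proteins (CRMPs), encoded by Crmp1, Dpysl2, Dpysl3, Dpysl4 and Dpysl5, and the 4 stathmins, encoded by Stmn1, Stmn2, Stmn3 and Stmn4. Every probe set whose platform annotation gave exactly 1 gene symbol, and that symbol one of these, was taken: 18 probe sets for 9 genes, of 34945 probe sets for 18193 genes. The rule reads names, but both families were selected on earlier results of these data, in which their scores with GDNF and against whole gut were known. The calls and adjusted p-values below are therefore a description of these samples and not independent evidence.

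The arrays profiled enteric neural crest cells (ENCCs), the migrating precursors of the neurons and glia of the gut, from mouse embryos of 14.5 days on a C57BL/6 background. The embryos carried Wnt1-Cre and a Cre-dependent YFP in the Rosa26 locus, so that YFP marks cells with a history of Wnt1 expression, and YFP-positive cells were sorted and cultured on fibronectin with FGF and EGF. The cells of 1 gut filled 2 wells, of which 1 received 50 ng/ml GDNF, the ligand that signals through the receptor RET. All ENCCs, untreated wells included, had thus been sorted and grown with both growth factors, for a culture time that the sources used here do not give. Whole gut came from wild type embryos of the same age and background, dissected from duodenum to anus and neither sorted nor cultured. A cell type tag of these samples names ENCCs, although their source is the whole organ. Untreated ENCCs of 9 guts were read on 12 arrays, GDNF-treated ENCCs of the same 9 guts on 13 arrays, and 8 whole guts on 8 arrays. Litters and any pooling of RNAs are not in the labels, so the spread is that between these samples.

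CRMPs are cytosolic proteins that were found through their part in the response of growth cones to semaphorins. CRMP2, the member studied most, binds tubulin and helps microtubules to assemble in growing axons. Phosphorylation by Cdk5 and then Gsk3b releases CRMP2 from tubulin. Stathmins do the opposite of CRMP2: each binds tubulin dimers and promotes the shrinkage of microtubules until kinases phosphorylate it. Stmn1 is cytosolic and is found in many dividing and immature cells, whereas Stmn2, Stmn3 and Stmn4 carry a membrane anchor and are largely neuronal. Members of both families are commonly used as marks of young neurons.

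Sequence from around the annotated start is shown for 3 of the genes that rose with GDNF, as the stretches in which control elements could be sought. Such sequences from RefSeq (GRCm38.p6) were used for 3 of the 9 genes, each running from 250 bases before the start to 50 bases after it. The gene of Crmp1 lies at chr5:37242058-37292163, that of Dpysl5 at chr5:30711564-30799369 and that of Stmn3 at chr2:181306459-181314500. The sequences below cover chr5:37241808-37242107 on the plus strand, chr5:30711314-30711613 on the plus strand and chr2:181314451-181314750 on the minus strand, 5′ to 3′ along the gene, and capitals mark a GC box (GGGCGG on either strand).
Crmp1: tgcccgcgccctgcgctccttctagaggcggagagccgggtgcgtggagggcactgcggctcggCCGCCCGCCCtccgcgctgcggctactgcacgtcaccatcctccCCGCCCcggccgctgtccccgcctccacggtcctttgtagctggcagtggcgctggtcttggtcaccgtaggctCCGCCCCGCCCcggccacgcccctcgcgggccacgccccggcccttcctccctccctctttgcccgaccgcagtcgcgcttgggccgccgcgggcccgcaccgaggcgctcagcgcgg
Dpysl5: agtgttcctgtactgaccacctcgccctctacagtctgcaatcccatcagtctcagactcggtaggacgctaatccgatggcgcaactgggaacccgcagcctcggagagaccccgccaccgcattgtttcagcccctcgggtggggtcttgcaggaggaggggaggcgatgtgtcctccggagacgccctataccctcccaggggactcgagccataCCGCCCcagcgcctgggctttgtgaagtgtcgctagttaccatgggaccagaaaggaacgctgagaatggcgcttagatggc
Stmn3: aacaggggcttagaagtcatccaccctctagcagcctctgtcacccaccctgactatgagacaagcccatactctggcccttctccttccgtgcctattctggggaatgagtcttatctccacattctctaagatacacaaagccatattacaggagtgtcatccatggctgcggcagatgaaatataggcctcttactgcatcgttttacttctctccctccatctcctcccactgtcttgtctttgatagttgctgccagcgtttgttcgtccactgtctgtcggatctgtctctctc
The Crmp1 stretch held 5 GC boxes, some of them overlapping, the Dpysl5 stretch 1, and the Stmn3 stretch 0, while 35.7% of 32851 promoters of the same length held at least 1. G and C made up 77.0% of the Crmp1 stretch, 61.0% of that of Dpysl5 and 49.7% of that of Stmn3, against a median of 52.7% over all promoters. A second Crmp1 start, at chr5:37245514-37245813, held 2 GC boxes. The cyclic AMP element TGACGTCA (1.79% of all promoters) and CAGCTG, a form of the E-box (16.3%), had 0 matches on both strands of each of these stretches. Other forms of the E-box were not searched. Such matches are letters in a window and not measured binding sites.

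All values are normal scores, that is, the rank of a probe set within its array turned into a normal quantile with a median of 0 and a range of -4.084 to 4.084. The scores of a probe set had also been set relative to the ENCC arrays of its batch, as read from the values: over the 7 RNAs read in both batches, the mean score of a probe set varied little over probe sets (SD 0.0585 for batch 1, 0.117 for batch 2), whereas an SD of 0.378 would come from independent arrays. A score is therefore neither an amount nor a log value, a difference is not a fold, and levels of different genes were not compared. Between the batches, the score of the same RNA correlated at 0.117 to 0.325 over all probe sets, the lowest being the untreated well of gut 3. For the members the correlation of a probe set between batches over these 7 RNAs was 0.0846 to 0.975 with a median of 0.78. It was above 0 for 18 of 18, while over all probe sets the median was 0.370 and 72.8% were above 0. These RNAs come from untreated and from treated wells, so a difference with GDNF enters this correlation. The members were chosen with that difference known, so their higher median does not show that they were read more reliably.

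The first comparison asked which members differ between the GDNF-treated and the untreated well of 1 gut. Crmp1, Dpysl2 and Dpysl5 of the CRMPs and Stmn1, Stmn2 and Stmn3 of the stathmins rose with GDNF, each by 1.28 to 1.77. Each rose in 9 of 9 guts once the batches of a gut were averaged. In batch 1 alone, Dpysl2 and Dpysl5 were above 0 in 7 of 8 guts, with gut 9 at -0.29 and -0.14. Dpysl3, Dpysl4 and Stmn4 did not pass the test, and 0 members were called lower. By limma over all genes, 6 of 9 members were thus called higher, where 18.3% of all genes were called higher and 13.2% lower. In bulk RNA, fewer cells of a type and less RNA per cell cannot be told apart. With the 4 guts of batch 2 alone, limma called 0 of the 9 members, and 0 of all 18193 genes, after adjustment. There 6 members had an unadjusted limma p under 0.05, as did 3516 of all 18193 genes. The differences of these 6 members were 1.22 to 1.76.

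**Figure D1:**
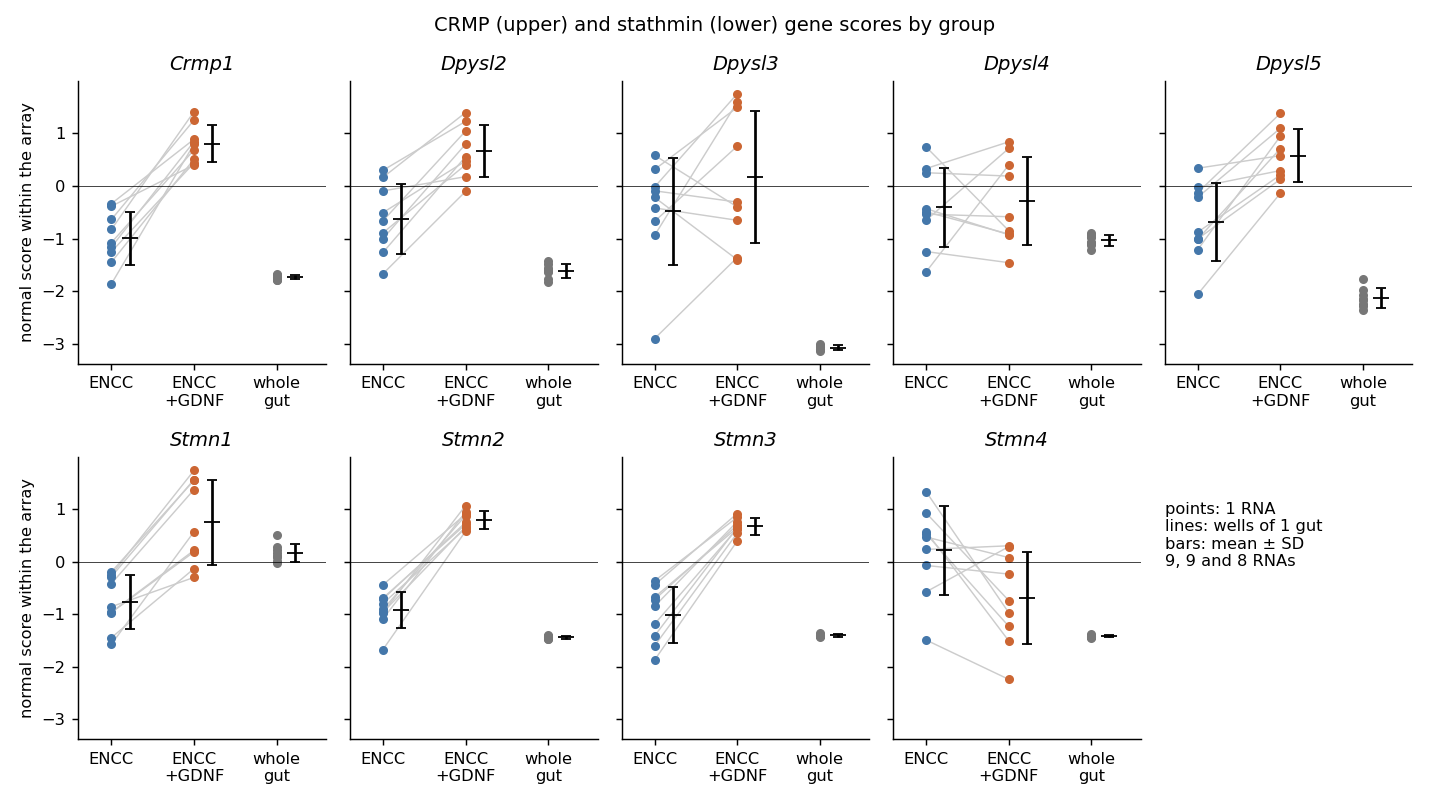
Normal score within the array (vertical axis) of the 9 genes in untreated ENCCs, GDNF-treated ENCCs and whole gut; points are single RNAs, averaged over batches for ENCCs, grey lines join the 2 wells of 1 gut, and bars are mean ± SD over 9, 9 and 8 RNAs. Treated wells of Crmp1, Stmn2 and Stmn3 lie above every untreated well, and whole guts lie close together for each gene.

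Crmp1, a CRMP of the nervous system, was read by 1 probe set. Its score in untreated ENCCs ran from -1.86 to -0.34 with a median of -1.08, and in treated ENCCs from 0.40 to 1.42 with a median of 0.80. The lowest treated well was above the highest untreated well, so the groups did not overlap. The share of all genes whose groups do not overlap is not given here, so this and later statements on overlap only describe the members. The difference within a gut was 1.77 ± 0.53 (SD, n = 9 guts; limma adjusted p = 8.5e-05), from 0.79 in gut 9 to 2.66 in gut 1. The batches gave 1.69 ± 0.63 (n = 8 guts) and 1.76 ± 0.47 (n = 4 guts).

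Dpysl2 encodes CRMP2, the member whose binding of tubulin dimers and part in axon growth have been studied most. Untreated ENCCs scored -1.67 to 0.30 with a median of -0.66, and treated ENCCs -0.10 to 1.40 with a median of 0.56, so the groups overlapped. Within guts the difference was 1.28 ± 0.50 (SD, n = 9, limma adjusted p = 5.6e-04), and gut 9 had the smallest at 0.27. That gut was at -0.29 in batch 1 and at 0.83 in batch 2. Both of its probe sets were called, at 1.49 ± 0.81 for 1433770_at and 1.07 ± 0.67 for 1450502_at, the latter slightly below 0 in 1 gut (-0.01).

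Dpysl5 encodes CRMP5, which is found in young neurons. Its score was -2.06 to 0.34 with a median of -0.88 in untreated wells and -0.14 to 1.38 with a median of 0.58 in treated wells. With batches averaged, treated wells were higher within every gut, by 1.30 ± 0.72 (SD, n = 9, limma adjusted p = 0.0015). Guts 6 and 9 were at only 0.32 and 0.24, and gut 9 was at -0.14 in batch 1 and at 0.62 in batch 2. Its 2 probe sets differed: 1449290_at rose by 1.85 ± 1.02 (limma adjusted p = 8.3e-04), whereas 1441246_s_at was at 0.75 ± 0.96 (limma adjusted p = 0.0907). The first correlated between batches at 0.908 and the second at 0.535, values into which the difference with GDNF also enters.

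Dpysl3 encodes CRMP4, a member linked to axon extension and to actin bundles. It was at -2.91 to 0.58 with a median of -0.22 in untreated wells and at -1.40 to 1.75 with a median of -0.31 in treated wells. The mean difference of 0.63 ± 1.32 (SD, n = 9; limma adjusted p = 0.236) hid guts of both signs. Guts 1 to 5 were at 1.54, 0.97, 1.43, 1.77 and 2.53, and guts 6 to 9 at -1.19, -0.21, -0.23 and -0.98. In the 3 guts with arrays in both batches the sign was the same in each batch: gut 3 was at 1.28 and 1.58, gut 8 at -0.29 and -0.18, and gut 9 at -0.93 and -1.03. None of its 3 probe sets was called by limma; 1454613_at came nearest, at 0.86 ± 1.07 (adjusted p = 0.0703).

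Dpysl4 encodes CRMP3. Its score ran from -1.63 to 0.74 in untreated and from -1.46 to 0.84 in treated wells, and the difference was 0.09 ± 1.06 (SD, n = 9; limma adjusted p = 0.859). Guts 4 and 5 stood at 2.03 and 1.36 and gut 9 at -1.59, and without gut 4 or gut 5 the mean was -0.15 or -0.07. Its probe set 1418297_at had the lowest correlation between batches of all 18, 0.0846.

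**Figure D2:**
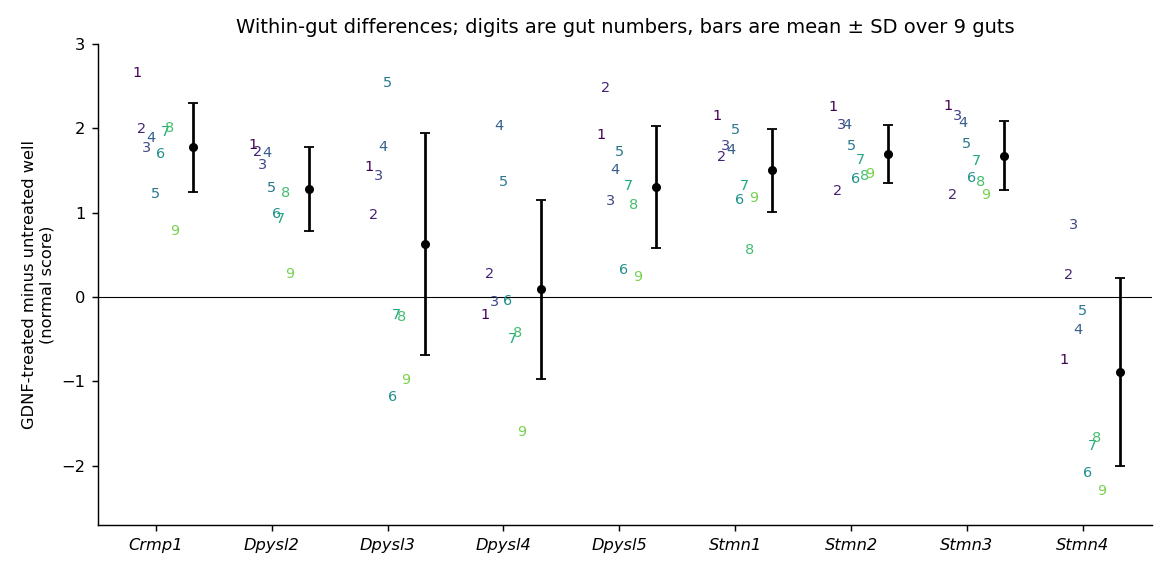
GDNF-treated minus untreated well of the same gut (vertical axis, normal score) for each gene; digits are gut numbers and bars are mean ± SD over 9 guts. The 6 genes called higher have all guts above 0, whereas Dpysl3, Dpysl4 and Stmn4 have guts on both sides of 0.

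Among the stathmins, Stmn2 (SCG10), which is enriched in growth cones, had one of the smallest spreads of the members. Untreated wells scored -1.67 to -0.44 with a median of -0.91 and treated wells 0.58 to 1.07 with a median of 0.75, with no overlap. The rise was 1.70 ± 0.35 (SD, n = 9; limma adjusted p = 6.6e-05), between 1.26 in gut 2 and 2.25 in gut 1. Both probe sets were called, 1423280_at at 1.79 ± 0.23 and 1423281_at at 1.61 ± 0.57.

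Stmn3 (SCLIP), its close neuronal relative, scored -1.87 to -0.36 with a median of -0.85 in untreated wells and 0.39 to 0.92 with a median of 0.65 in treated wells. Here too no treated well was as low as an untreated one. It rose by 1.68 ± 0.41 (SD, n = 9; limma adjusted p = 7.7e-05), and the 2 probe sets rose by 1.75 ± 0.31 (1435113_x_at) and 1.60 ± 0.70 (1460181_at). Over the 18 ENCC RNAs the scores of Stmn2 and Stmn3 correlated at 0.957, the highest of the 36 pairs of members; the RNAs share guts, and both genes rose with GDNF.

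Stmn1, the cytosolic stathmin, scored -1.57 to -0.19 with a median of -0.86 in untreated and -0.30 to 1.74 with a median of 0.57 in treated wells, so that the groups overlapped. The rise within guts was 1.50 ± 0.50 (SD, n = 9; limma adjusted p = 2.0e-04), the smallest being 0.56 in gut 8. Its probe sets 1415849_s_at and 1448113_at rose by 1.52 ± 0.50 and 1.48 ± 0.57. Of 15 measured markers of dividing cells, in which Stmn1 is often found, limma called 0 in either direction with GDNF. The mean of that list differed by 0.08 ± 0.95 (SD, n = 9), from -1.26 to 2.31 over guts, and its part in the Stmn1 difference was not tested.

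Stmn4 (RB3), the third stathmin with a membrane anchor, lay on the other side. It was read by a single probe set, 1418105_at, which correlated between batches at 0.665. It scored -1.49 to 1.33 with a median of 0.47 in untreated and -2.24 to 0.30 with a median of -0.74 in treated wells, and the groups overlapped. The difference was -0.89 ± 1.11 (SD, n = 9; limma adjusted p = 0.0560), below 0 in 7 of 9 guts. Guts 6 to 9 were at -2.08, -1.76, -1.67 and -2.30, and gut 3 was highest at 0.86. In every gut Stmn4 had a smaller difference than Stmn1, Stmn2 and Stmn3. The call depended on the samples: limma called Stmn4 lower in batch 1 alone (-1.25, adjusted p = 0.0194), without the doubted batch 2 array of the untreated well of gut 3 (-0.98, adjusted p = 0.0253), without gut 2 (-1.03, adjusted p = 0.0389) and without gut 3 (-1.11, adjusted p = 0.0203). In batch 2 alone its difference was -0.27 ± 1.52 (SD, n = 4 guts). Without the doubted array the 6 genes called higher were at 1.34 to 1.77.

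**Figure D3:**
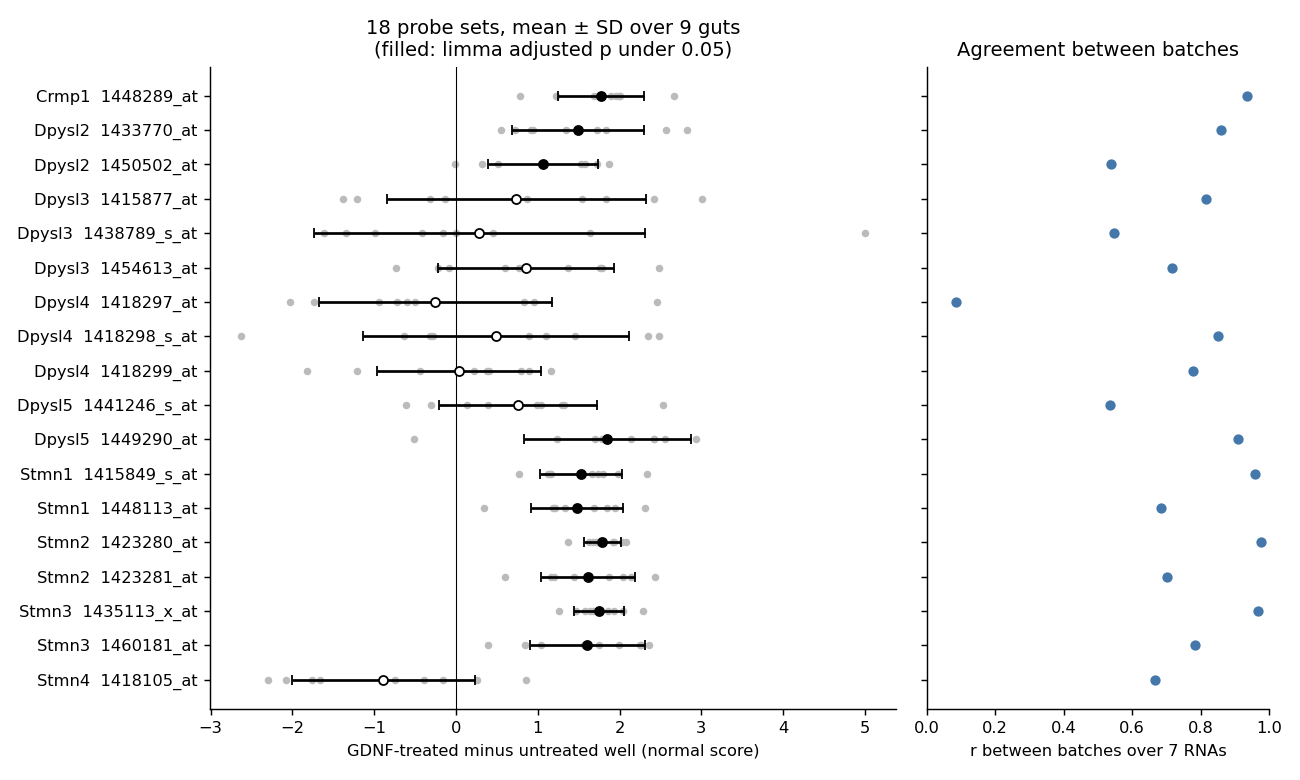
Left, GDNF-treated minus untreated well (horizontal axis, normal score) for the 18 probe sets, with 9 guts as grey points, mean ± SD in black and filled circles for a limma adjusted p under 0.05; right, correlation of each probe set between batches over 7 RNAs. Filled circles stand at 10 probe sets, each above 0, and correlations run from 0.0846 to 0.975.

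By single probe sets, 10 of 18 were called higher by limma and 0 lower, where 16.9% of all probe sets were called higher and 13.2% lower. Dpysl2, Stmn1, Stmn2 and Stmn3 had both of their probe sets called, and Crmp1 its only one. The probe set pairs of Stmn1, Stmn2 and Stmn3 differed from each other by less than the SD over guts.

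Members were also correlated within the 9 untreated and within the 9 treated RNAs, where the mean shift with GDNF plays no part. In treated wells, a shift that varies between guts can still enter. Of 72 such correlations (36 pairs in each group), 13 had an exact permutation p for Pearson's r under 0.05 after Benjamini-Hochberg adjustment. For Spearman's rho 0 of 72 did. The share for pairs of other genes is not given here, so these counts only describe the members. For Stmn4 and Stmn2, whose mean differences with GDNF had opposite signs, r was above 0 in each group, but of the 4 adjusted tests only that of r in treated wells passed. In treated wells r was 0.87 (exact permutation p = 0.0036, adjusted p = 0.0329) and rho 0.82 (exact permutation p = 0.0108, adjusted p = 0.111), and in untreated wells r was 0.78 (exact permutation p = 0.0197, adjusted p = 0.0833) and rho 0.62 (exact permutation p = 0.0857, adjusted p = 0.257). Without the 2 RNAs farthest from the median of Stmn2, r stayed at 0.87 and 0.78. Dpysl3 and Stmn2 had r = 0.89 in both groups (exact permutation adjusted p = 0.0438 untreated and 0.0329 treated; rho 0.60 and 0.80, exact permutation adjusted p = 0.258 and 0.111). Without the 2 farthest RNAs that r was 0.60 in untreated and 0.86 in treated wells; the untreated well of gut 1, lowest for both genes, is one of those left out.

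The genes outside the families whose scores were most like a member's over the 18 ENCC RNAs were found by correlation, as a description. For Crmp1 these were Mapk8ip2, a scaffold of JNK signalling (r = 0.981), and Mcf2l (r = 0.972). Stmn2 was closest to Tspan13 (r = 0.989) and Bex3 (r = 0.986), and Stmn3 to Fbxl16 (r = 0.988) and Celf4, an RNA-binding protein of neurons (r = 0.983). Stmn1 was closest to Hsbp1 (r = 0.974) and Gng2, a G protein subunit (r = 0.966). Dpysl5 was closest to Slc25a4, a mitochondrial ADP/ATP carrier (r = 0.927), and Nipsnap1 (r = 0.922), and Dpysl2 to Pcdhb7 (r = 0.918) and Acly, which makes acetyl-CoA (r = 0.900). All 12 of these genes were themselves called higher with GDNF, by 1.19 to 1.85, where 18.3% of all genes were called higher. The 18 RNAs mix untreated and treated wells, so the shift with GDNF enters each r. That these genes also rose is therefore no separate result. The likenesses of the other members were lower: Dpysl3 to Glod4 (r = 0.864) and Jpt1 (r = 0.822), Dpysl4 to Neo1, a receptor of netrins and RGM proteins (r = 0.870), and Psd2 (r = 0.808), and Stmn4 to Tia1 (r = 0.867) and Aamdc (r = 0.846). These are the highest of 18193 genes less the families, so high values arise by selection.

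The pathway around the 2 families was read from lists that were also drawn up with earlier results known. Tubulins, the partners of both families, had 9 of 11 measured genes called higher and 0 lower, with a median difference of 1.39, against a median of 0.01 over all genes; beside this and the list counts that follow stand the 18.3% of all genes called higher and the 13.2% called lower. Tubb2b, mutated in cortical malformations, rose by 1.86 and Tubb3, the neuronal class III β-tubulin, by 1.80. Of 29 proteins that bind or stabilise microtubules, 12 were called higher and 0 lower (median 0.68). Camsap3, which binds minus ends, rose by 2.02 and Mapt, the axonal protein tau, by 1.96, and Dcx (doublecortin) rose by 0.86. Map1b was at 0.72 (limma adjusted p = 0.10). Of 21 genes for severing, depolymerising, folding or modifying tubulin, 8 were called higher and 3 lower (median 0.39): Hdac6, a tubulin deacetylase, rose by 1.47 and Katnal1, a katanin subunit, by 1.34, while Svbp, the partner of the vasohibin tubulin carboxypeptidases, fell by 1.84 and Kif2b, a depolymerising kinesin, fell by 0.97.

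Of 13 kinases and phosphatases that act on CRMPs, 5 were called higher and 1 lower (median 0.51). Camk2b rose by 1.61, Cdk5r2 and Cdk5r1, the activators of Cdk5, by 1.15 and 1.01, while Rock1 fell by 0.96 and Gsk3b was at 0.02 (limma adjusted p = 0.97). Stathmin kinases had 6 of 13 called higher and 0 lower (median 0.76), led by Map2k4, which activates JNK (1.56), and Pak3 (1.47). CRMP partners and the semaphorin route were split, with 5 of 19 called higher and 5 lower (median -0.32). Chn1, a Rac GTPase-activating protein, and the semaphorin co-receptor Plxna3 rose by 1.68 and 1.67. The related receptors Plxna2 and Plxna1 fell by 1.30 and 1.22, and Nrp1, which binds class 3 semaphorins, fell by 0.86.

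**Figure D4:**
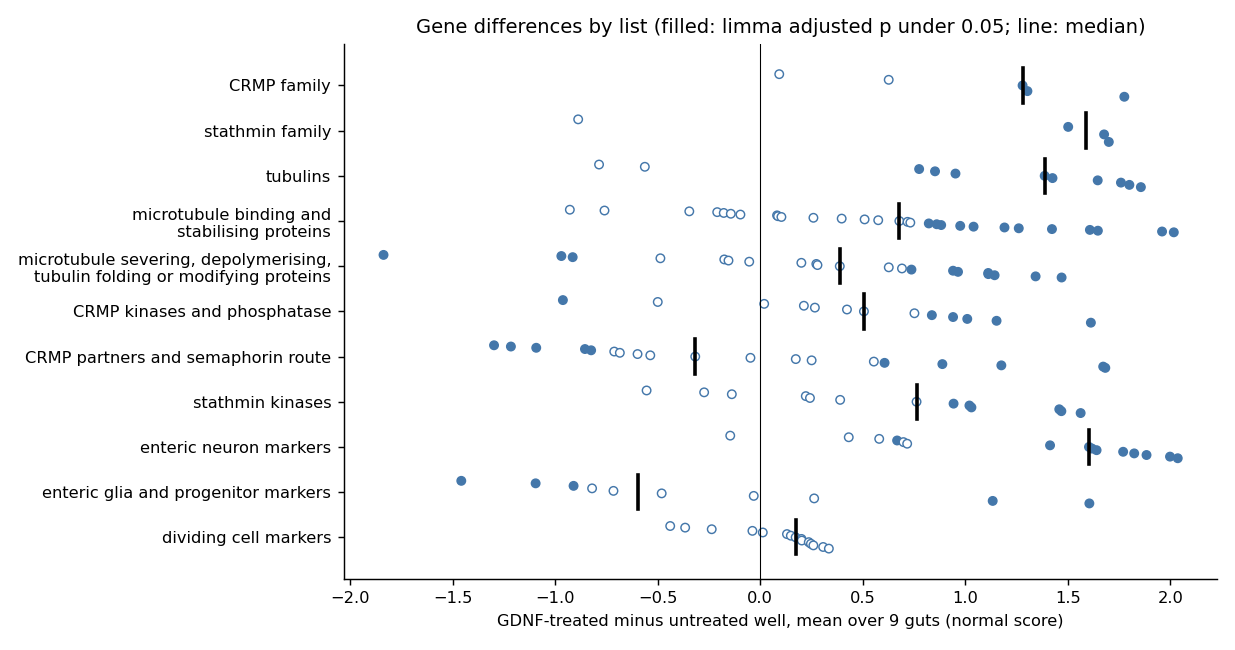
Mean GDNF-treated minus untreated difference over 9 guts (horizontal axis, normal score) of each gene by list; filled points have a limma adjusted p under 0.05 and black lines are list medians. The medians of the CRMP and stathmin families are 1.28 and 1.59, and that of the dividing cell markers is 0.17.

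Marker lists of cell types were read beside the members. Of 15 neuron markers measured, 10 were called higher and 0 lower, and their mean score ran from -1.67 to -0.38 over untreated and from -0.06 to 0.74 over treated wells, a difference of 1.25 ± 0.26 (SD, n = 9), above 0 in 9 of 9 guts. Elavl3, a neuronal RNA-binding protein, rose by 2.04, whereas its relative Elavl4 was at -0.15 (limma adjusted p = 0.83). Of 10 markers of glia and progenitors, 2 were called higher and 3 lower, and the list differed by -0.25 ± 0.70, above 0 in 4 of 9 guts; Sox10 was at -0.03 (limma adjusted p = 0.95), Fabp7 and Gfap rose by 1.60 and 1.13, and Sox2 and Cryab fell by 1.46 and 1.10. Of 12 smooth muscle and mesenchyme markers 4 were called lower and 0 higher, and the list differed by -0.64 ± 0.58, with 2 of 9 guts above 0. Ribosomal protein genes had 6 of 7 called lower and 0 higher, at -1.10 ± 0.48 and below 0 in 9 of 9 guts. Epithelium (1 of 13 higher, 0 lower), endothelium (1 of 9 in each direction) and macrophage or blood markers (0 of 9) made few calls by limma. The hybridisation control probe sets, which read RNAs added before hybridisation, differed by -2.18 to 0.65 between the wells of a gut and were below 0 in 6 of 9 guts. With their mean as a covariate, limma called the same 6 members higher, by 1.26 to 1.78. The part of the other shifts in the members' differences was not tested.

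The second comparison set ENCCs against whole gut, which was read in batch 2 alone, so that the ENCC arrays of that batch (guts 2, 3, 8 and 9) were used. Dpysl3, Dpysl4, Dpysl5, Crmp1, Stmn2 and Stmn4 were higher in untreated ENCCs than in whole gut, by 0.80 to 3.09, by limma with a weight for each group. Dpysl2 and Stmn3 were at 0.89 and 0.78 and Stmn1 at -0.78, which that fit did not call. In treated ENCCs every member lay above whole gut on average, by 0.62 for Stmn1 to 3.42 for Dpysl3. Both comparisons share the 8 whole guts.

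The scores of the 2 groups, set relative to the ENCC arrays of the batch, spread very differently. The part of that scaling in the contrast was not tested. Between arrays, r was 0.902 to 0.952 for whole guts and at most 0.398 for ENCCs. The SD of a member's score was 0.0217 to 0.189 over the 8 whole guts and 0.239 to 1.11 over the 4 untreated ENCC RNAs. The planned fit assumes 1 spread for both groups, and on simulated data with unequal spreads like these it made false calls, so its calls are not firm; with a weight for each group far fewer false calls were made. With 1 spread for both groups, limma called 8 members higher and 1 lower in untreated ENCCs, where 19.8% of all genes were called higher and 22.8% lower. With a weight for each group, an alternative chosen after seeing the data, it called 6 higher and 0 lower, with 9.01% of all genes higher and 11.7% lower. Dpysl2 (adjusted p = 0.103), Stmn3 (adjusted p = 0.0571) and Stmn1 (adjusted p = 0.217) lost their call there. For treated ENCCs the single spread called 8 members higher and 0 lower (25.1% of all genes higher and 26% lower), and the weights 7 higher and 0 lower (16% of all genes higher and 15.9% lower); Dpysl4 was lost (adjusted p = 0.103). Adjusted p-values in the next paragraphs are from limma with these weights.

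**Figure D5:**
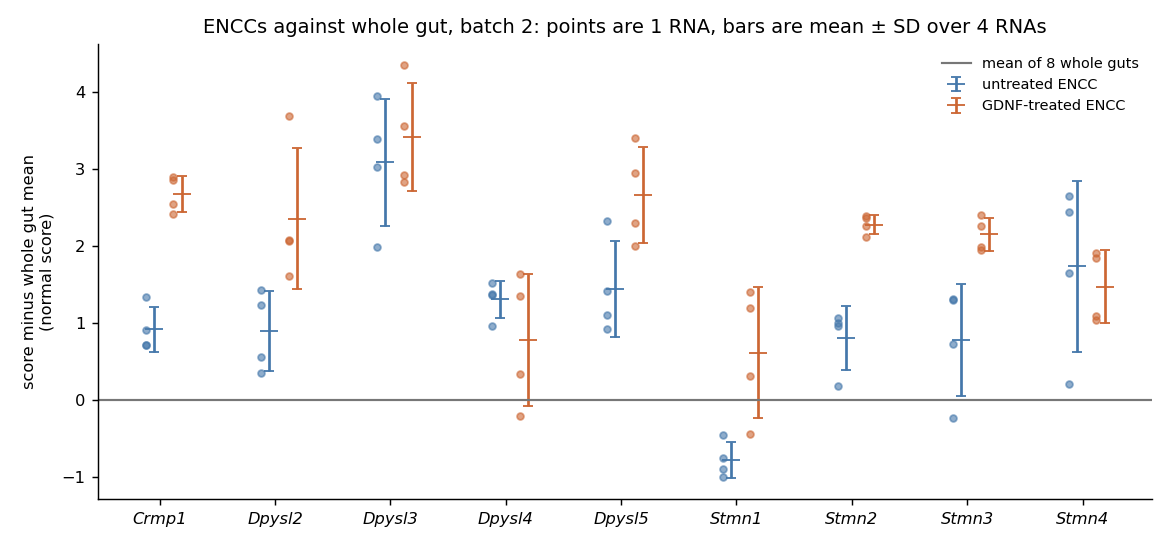
Score of batch 2 ENCC RNAs minus the mean of 8 whole guts (vertical axis, normal score; the grey line at 0 is the whole gut mean) for untreated and GDNF-treated ENCCs; points are single RNAs and bars are mean ± SD over 4 RNAs. Dpysl3 stands highest in both groups, and untreated Stmn1 lies below the line in all 4 RNAs.

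Dpysl3 stood farthest from whole gut. Its 8 whole guts lay between -3.14 and -3.00, near the lower end of the scale, and the untreated ENCCs of guts 2, 3, 8 and 9 at 0.31, -1.09, -0.05 and 0.87. The difference was 3.09 (adjusted p = 2.1e-05), and it was 2.94 to 3.26 for its 3 probe sets. Treated ENCCs at 1.28, 0.49, -0.24 and -0.16 were 3.42 above whole gut (adjusted p = 1.1e-06). No ENCC RNA of batch 2 reached down to a whole gut in either group.

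Dpysl5 was at -2.36 to -1.77 in whole gut, and at -1.21, -0.72, -1.03 and 0.20 in the 4 untreated ENCC RNAs, a difference of 1.44 (adjusted p = 0.0403). It was 2.66 higher in treated ENCCs (adjusted p = 3.4e-04). As with GDNF, its probe set 1449290_at gave more (2.03 untreated and 3.75 treated) than 1441246_s_at (0.85 and 1.58). Crmp1 had whole guts at -1.78 to -1.67, untreated ENCCs at -0.83, -1.03, -1.03 and -0.40 and treated ENCCs at 1.16, 0.80, 1.12 and 0.68. These 3 groups did not overlap, and ENCCs lay 0.92 (adjusted p = 0.0110) and 2.68 (adjusted p = 9.4e-07) above whole gut.

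Dpysl2 scored -1.82 to -1.42 in whole gut and -1.26, -1.06, -0.18 and -0.38 in untreated ENCCs. All 4 RNAs were above the whole guts, yet the difference of 0.89 did not pass with group weights. It came mostly from 1433770_at (1.49), while 1450502_at was at 0.30 and overlapped. Treated ENCCs were 2.36 higher (adjusted p = 3.3e-04). Dpysl4 was the CRMP nearest to whole gut after GDNF. Untreated ENCCs at 0.33, 0.48, -0.07 and 0.35 lay 1.31 above the whole guts at -1.22 to -0.90 (adjusted p = 0.0075). Treated ENCCs at 0.60, 0.32, -1.24 and -0.70 overlapped them (0.78). Its probe sets 1418297_at, 1418298_s_at and 1418299_at were 0.17, 1.53 and 0.64 above whole gut in treated ENCCs.

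Among the stathmins, Stmn2 was at -1.47 to -1.39 in whole gut, at -0.44, -1.26, -0.48 and -0.37 in untreated ENCCs (0.80 higher, adjusted p = 0.0237) and at 0.82, 0.92, 0.68 and 0.95 in treated ENCCs (2.28 higher, adjusted p = 1.3e-06). Stmn3 was at -1.43 to -1.36 in whole gut and at -0.67, -1.63, -0.11 and -0.09 in untreated ENCCs, where the RNA of gut 3 lay below every whole gut. Its untreated difference of 0.78 did not pass with group weights (adjusted p = 0.0571), while treated ENCCs were 2.15 higher (adjusted p = 2.2e-06). The probe sets of both genes differed. For Stmn3, 1435113_x_at was 1.25 higher untreated and 3.06 treated, and 1460181_at 0.31 and 1.24. For Stmn2, 1423280_at was 0.94 and 2.84 higher, and 1423281_at 0.66 and 1.72. Untreated ENCCs overlapped whole gut for 1460181_at and 1423281_at.

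For Stmn4, untreated ENCCs at 0.23, -1.22, 1.02 and 1.23 were 1.74 above whole gut (adjusted p = 0.0023), and treated ENCCs at 0.49, 0.43, -0.38 and -0.33 were 1.47 above it (adjusted p = 1.0e-04). Its whole guts lay within -1.45 to -1.38.

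Stmn1 was the only member that whole gut held above untreated ENCCs on average. Whole guts were at -0.03 to 0.51 and untreated ENCCs at -0.28, -0.83, -0.58 and -0.73, with no overlap, but the difference of -0.78 was not called with group weights. Treated ENCCs at 1.37, 1.57, -0.28 and 0.49 lay on both sides (0.62, adjusted p = 0.328). Guts 2 and 3 were above every whole gut, gut 8 was below every one, and without gut 8 the mean difference was 0.97. The single-spread limma fit, the one that made false calls on simulated data, called Stmn1 higher without gut 8 (adjusted p = 0.0019). Dividing cell markers, which go with Stmn1 in many tissues, had a median difference of -1.38 in untreated and -1.47 in treated ENCCs against whole gut.

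A second alternative chosen after seeing the data let the 4 untreated ENCC values alone set the spread. There limma called Dpysl3, Dpysl4, Dpysl5 and Stmn4, but not Crmp1 (adjusted p = 0.0924) and Stmn2 (adjusted p = 0.147). Of all 18193 genes it called 1583 higher and 2174 lower. For treated ENCCs this alternative called the same 7 members as the weights did, and of all genes 2673 higher and 2384 lower.

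Marker genes were read as a check of the labelled samples. In batch 2 the mean score of the neuron markers was -1.82 to -1.71 over whole guts, -0.95 to -0.40 over untreated and 0.51 to 0.86 over treated ENCCs. That of 13 epithelium markers was 2.67 to 2.72 over whole guts and -0.88 to 0.74 over ENCCs, and that of 9 macrophage and blood markers 1.60 to 1.74 and -0.63 to 0.52. Whole gut thus differed from ENCCs in the cell types it holds as well as in sorting and culture, and these cannot be told apart in the members' differences.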

How the data were processed

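RNA labelled with biotin was read on Affymetrix arrays in 2 batches. The submitters' processing notes name RMA, without a version. The deposited value is a score: per the values themselves, each array's 45101 values equal normal quantiles of rank over n plus 1 (largest deviation 5e-06). Arrays give no count, so their number limits the precision. Control probe sets (64) and probe sets with several (932) or no symbol (9211) were left out, and probe sets of a gene were averaged. Treated minus untreated was taken within a gut and batch, and guts 3, 8 and 9, read in both, entered as the mean of their 2 differences. The pairing rests on the labels' treatment protocol. Deviations of the wells of 1 gut correlated at 0.025 to 0.305, and in only 4 of 12 cases was this higher than with every other gut. These values therefore do not establish the pairing. Limma 3.58.1 (lmFit, eBayes; statmod 1.5.0, R 4.3.3) was fitted to all genes with Benjamini-Hochberg adjustment at 0.05, and tested on simulated data, where the fit of ENCCs against whole gut with 1 spread made false calls. Correlation permutations and figures used Python 3.11.15, NumPy 2.4.6 and matplotlib 3.10.9. Whole guts were compared with ENCC arrays of batch 2. Alternatives left out guts, split batches, changed probe sets, scale, pairing and spread, or took the hybridisation controls as a covariate. Members and lists were chosen with earlier results of these data known. Named genes were all members, the 2 genes most like each over 18 RNAs, in each list the 2 called genes with the largest differences in each direction, and direct partners or defining markers; not each of these is printed.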

Additional observations from a re-analysis of the deposited data

Results flagged for a closer look

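For Dpysl3, the untreated RNA of gut 1 stood at -2.91, far below the other 8 untreated RNAs. For Stmn2, the batch 2 array of the untreated well of gut 3 stood at -1.26, below the other 3 untreated arrays of that batch; it is the array that correlated least with its repeat. Of 54 groups of values examined in this way 2 stood out, and chance alone marks about 1 in 20.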

How the results depend on the processing

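The 6 genes called higher with GDNF were called under 17 of 18 alternatives each, with adjusted p-values up to 0.0157; the exception was batch 2 alone, with 0 genes and 0 probe sets called higher. That alternative has 4 guts. The alternatives reuse the same guts, so they are not independent of each other. All 18 member probe sets correlated above 0 between batches, so the alternative that keeps only such probe sets leaves the members' differences unchanged. Treating the wells as unpaired (no replicate block) also called 6 members higher. Of all 18193 genes it called 2930 higher and 1929 lower, and batch 1 alone called 3098 higher and 2226 lower. Stmn4 was called lower, as the 1 gene lower, in batch 1 alone, with all arrays and RNA as a random block (-0.91), with probe sets of positive correlation between batches (-0.89) and without the doubted array; leaving out 1 gut gave 0 to 1 genes lower and 0 to 1 probe sets lower, and batch 1 alone 1 probe set lower. Dpysl4 turned to -0.53 in batch 2 alone, to -0.055 with all arrays, and ran from -0.15 (without gut 4; -0.067 without gut 5) to 0.30 when 1 gut was left out. Against whole gut, the title number as a replicate block, although the embryos differ, left 1 member higher and 0 lower in untreated ENCCs. Of all 18193 genes that block called 729 higher and 1180 lower. Group weights left 0 members lower, and the ENCC spread alone 4 higher and 0 lower. Dpysl4 in treated ENCCs lost its call under 7 of 19 alternatives and Stmn3 in untreated ENCCs under 6 of 19. The hybridisation control covariate left Stmn3 uncalled in untreated ENCCs (0.31) and Stmn1 called in treated ENCCs (0.91), both in the single-spread fit; over all genes it called 2797 higher and 1795 lower with GDNF. The causes were not tested.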
